A study of Mus musculus with 4 samples.

Results

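10 genes of the Hippo pathway were followed through single-cell RNA sequencing of the mouse lower incisor: the coactivators Yap1 and Wwtr1 (which encodes TAZ), the DNA-binding partners Tead1, Tead2, Tead3 and Tead4, and the output genes Ccn1, Ccn2, Amotl2 and Lats2. They were chosen by symbol, and all 10 were found among the 32285 gene rows of the files. The proximal tissue of lower incisors was taken at postnatal day 15 from WT mice (2 libraries) and from Din-KO mice (2 libraries). Din-KO mice carry a conventional knockout of Din (4930453N24Rik, listed as din in the files), made by germline Cre from a gene-trap allele that leaves a LacZ reporter under the Din promoter. Mice per library, their strain and their sex are not given in the sources used here, and WT libraries are the only controls. The tissue was digested with liberase and depleted of dead cells before capture with the 10x Genomics 3' kit, in which each captured transcript carries a unique molecular identifier (UMI).

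YAP and TAZ are the transcriptional coactivators at the end of the Hippo pathway. When the kinases MST (Stk3, Stk4) and LATS (Lats1, Lats2) are active, YAP and TAZ are phosphorylated and kept out of the nucleus. When the kinases are inactive, the coactivators bind TEAD proteins on DNA and raise transcription of genes such as Ccn1 and Ccn2, which encode secreted matrix proteins, and of Amotl2 and Lats2, which encode inhibitors of YAP and so close a feedback loop. In teeth the pathway is known for its part in epithelial proliferation and in the response of dental mesenchyme to mechanical force. Transcript counts do not measure phosphorylation or the location of YAP and TAZ.

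TEAD proteins are known to bind the letters GGAATG or their reverse complement CATTCC. Promoters of 7 members, 11 in all, were in the RefSeq table of GRCm38.p6, each with 250 bases before and 50 bases after the start. Tead1, Tead4 and Ccn2 had no entry. GGAATG on either strand stood in 8 of these 11, and in 14.7% of 32851 promoters of the same length. TGANTCA, the site of AP-1, was in 0 of 11 (7.81% of all promoters), and the CArG box of the serum response factor was in 0 of 11 (1.63%), all searched on both strands. The letters GGAATG do not overlap either of the other motifs. The match is a description of the letters in these windows, and no binding was measured. The stretches of 30 bases around the match are shown for the coactivators, for Tead3 and for Ccn1 and Amotl2. These are the members with a match before the RefSeq start. The stretches are written 5′ to 3′ on the strand of the gene, with the match in capitals.
Yap1, minus strand of chr9:8004720-8004749: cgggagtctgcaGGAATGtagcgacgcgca
Wwtr1, minus strand of chr3:57576029-57576058: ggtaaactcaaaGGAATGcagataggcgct
Tead3, minus strand of chr17:28350970-28350999: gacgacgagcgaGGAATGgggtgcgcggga
Ccn1, minus strand of chr3:145650071-145650100: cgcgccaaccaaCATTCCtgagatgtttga
Amotl2, plus strand of chr9:102717727-102717756: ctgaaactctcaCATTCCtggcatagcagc
The first base of the match lay at -141 from the start in Yap1, -136 in Wwtr1, -182 in Tead3, -103 in Ccn1 and -65 in Amotl2. For Wwtr1 and Tead3, which have more than 1 promoter in the table, these positions are those of the first listed, and both promoters of Wwtr1 hold the same match. The genes themselves lie, in GRCm38, at 9:7931999-8004596 (Yap1), 3:57455649-57575910 (Wwtr1), 17:28331671-28350817 (Tead3), 3:145646976-145649981 (Ccn1) and 9:102716672-102733418 (Amotl2). The RefSeq start used for Amotl2 lies inside this span, and so does its stretch of 30 bases.

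Of 20502 barcodes, 11310 passed the filters, between 1272 and 4575 a library, with a median of 8016 to 11587.5 UMIs. The barcodes that 2 libraries shared numbered at most 12. The kept cells formed 32 clusters, of which 29 were named from marker genes and 12 were mesenchyme-like (7000 cells). Where a genotype is given 2 values, that of replicate 1 comes first. The libraries differed by replicate number. Replicate 1 libraries were mostly dental pulp-like cells in their mesenchyme, 1983 of 2628 cells in WT and 2125 of 2988 in Din-KO, while replicate 2 libraries held 239 of 789 and 167 of 595. In mesenchyme-like cells the summed level of 16 stress and immediate early genes was 885 CPM (the UMIs of a gene or list divided by all UMIs of the same cells and multiplied by 10 to the sixth power) in WT replicate 1 and 1330 CPM in Din-KO replicate 1, against 2082 CPM in WT replicate 2 and 3421 CPM in Din-KO replicate 2. Y-linked UMIs together with little or no Xist were found in 38.9% and 36.8% of the kept cells in Din-KO and in 0% in WT. Over all kept cells din stood at 33.1 and 24.6 CPM in WT libraries, with 17.3 and 21.001 CPM in the Din-KO libraries. UMIs of din are counted over the whole gene and not over the removed exon alone, so this level does not check the genotype.

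Yap1 was present at overlapping levels in the non-immune classes, while Wwtr1 stood highest in endothelium-like cells. UMIs were summed per library and class, and sums of at least 20 cells entered a mean. Yap1 averaged 48.9 ± 9.5 CPM (SD, n = 4 libraries) in dental follicle-like, 46.2 ± 12.3 in dental pulp-like, 44.5 ± 7.3 in odontoblast-like, 43.7 ± 6.0 in epithelium-like and 38.1 ± 9.9 in endothelium-like cells. It averaged 40.8 CPM in perivascular-like and 31.0 CPM in glia-like cells, in each of which only 2 libraries had 20 cells. Each of these neighbours overlapped with the next. In the 13 sums of immune classes Yap1 ranged from 0 to 12.7 CPM. Yap1 was detected in 26.7% to 56.7% of mesenchyme-like cells and in 3.54% to 5.66% of macrophage-like cells, whose median depth of 8938 to 10725 UMIs lay within that of mesenchyme-like cells (7581.5 to 15493). After thinning of each cell to 2000 UMIs these shares became 6.603% to 12.4% and 0.885% to 2.35%.

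Wwtr1 was highest in endothelium-like cells, with 222 and 281 CPM in WT and 257 and 377 CPM in Din-KO. Glia-like cells followed at 161 and 222 CPM (Din-KO), and their range overlapped with that of endothelium-like cells. Every mesenchymal subtype lay lower, at 96.6 ± 12.4 CPM in dental follicle-like, 76.1 ± 21.1 in odontoblast-like and 70.1 ± 14.9 in dental pulp-like cells. Epithelium-like cells had 61.5 ± 15.7 CPM. Immune sums ranged from 0 to 9.82 CPM. As a share of the UMIs of both coactivators, Yap1 made up 8.32% to 15.7% in endothelium-like cells and 34.4% to 40.0% in mesenchyme-like cells, with no overlap between the 4 libraries of each class. A UMI count near the 3' end does not grow with gene length, but capture can differ between genes, so these shares were compared between classes only.

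**Figure D1:**
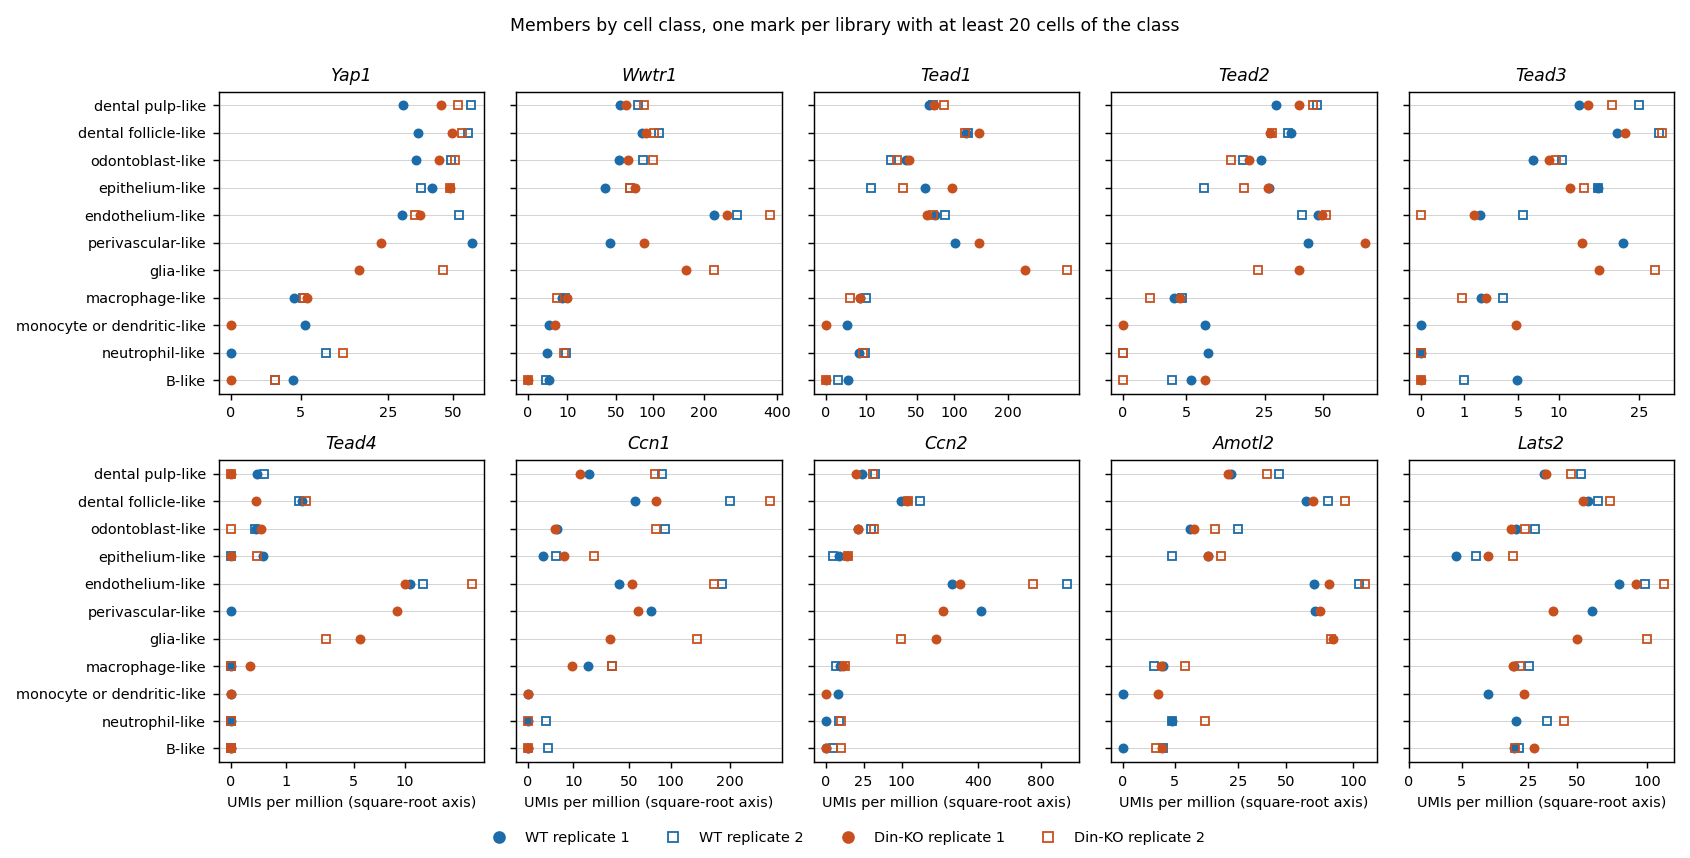
CPM of each of the 10 genes by cell class, on a square-root axis, with 1 mark for each library that had at least 20 cells of the class (blue WT, orange Din-KO, filled replicate 1, open replicate 2). Yap1 stays between 16.7 and 58.9 CPM in all non-immune classes. Wwtr1, Tead4 and Ccn2 have their highest mean in endothelium-like cells, where Wwtr1 overlaps with glia-like and Ccn2 with perivascular-like cells. The immune classes lie at or below 12.7 CPM for every gene but Ccn1 and Lats2.

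Endothelium-like cells had 5 of the 10 members higher and 1 lower than mesenchyme-like cells, in a comparison in which many other genes also differed. The class was well marked, with 7072 to 8953 CPM of its 8 marker genes against 17.5 to 33.4 CPM in mesenchyme-like cells. With the library as a term and Benjamini-Hochberg adjustment over 13046 genes, the quasi-likelihood test of edgeR called 5 members higher, where 23.6% of all genes were, and 1 lower, where 27.6% were. All comparisons of a class share the mesenchyme-like sums. Wwtr1 was higher by a log2 fold change of 1.70 ± 0.19 (SE; edgeR adjusted p = 4.033e-08). Ccn2 was higher by 3.06 ± 0.35 (edgeR adjusted p = 9.33e-08), Amotl2 by 1.05 ± 0.22 (0.0002258) and Lats2 by 1.07 ± 0.20 (7.758e-05). Yap1 (-0.39, 95% interval -0.84 to 0.06), Tead1 (-0.24, -0.82 to 0.34), Tead2 (0.52, 0.02 to 1.03) and Ccn1 (0.42, -0.19 to 1.03) did not pass. The mesenchyme-like sums joined subtypes in the unequal shares given above. Dental follicle-like cells alone had Amotl2 at 63.1 to 92.9 CPM, overlapping with 68.8 to 110 CPM in endothelium-like cells. Their Ccn1 averaged 156 CPM against 112, with overlap. Their Wwtr1 (83.8 to 111 CPM), Ccn2 (98.4 to 156) and Lats2 (53.3 to 71.5) lay below every endothelium-like sum. Single subtypes were not tested against endothelium-like cells. The WT replicate 2 endothelium-like sum also held 3805 CPM of mesenchyme markers, against 387 to 768 CPM in the others, and 1894 CPM of perivascular markers against 505 to 620 CPM. Their part in the result was not tested. In the replicate 1 libraries alone, a comparison chosen after seeing the data, the same 6 members passed, together with Tead2 and Ccn1 (1.102, edgeR adjusted p = 0.004333). Of the 16 stress genes 8 were higher and 2 lower in this class, and among cells at or below the median share of stress UMIs Wwtr1 (1.63), Ccn2 (3.48), Amotl2 (0.89) and Lats2 (1.06) still passed. In the replicate 2 libraries alone Amotl2 (0.77, edgeR adjusted p = 0.0577) did not pass.

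Within the TEAD family, Tead4 was higher and Tead3 lower in endothelium-like cells. Tead4, which had 0.11 to 0.93 CPM in mesenchyme-like cells, stood at 10.6 and 12.2 CPM in WT libraries, with 10.1 and 19.3 CPM in the Din-KO libraries, a log2 fold change of 4.40 ± 0.47 (edgeR adjusted p = 2.491e-07). Tead3 went the other way, with 1.87, 5.44, 1.48 and 0 CPM in the same libraries against 13.3 to 22.6 CPM in mesenchyme-like cells (-3.23 ± 0.41, edgeR adjusted p = 5.534e-07). The count of 0 came from 114 cells of Din-KO replicate 2 and allows up to 2.63% of cells with a UMI. Tead4 supplied 8.04% to 13.7% of the UMIs of the 4 TEAD genes in endothelium-like cells and 0.089% to 0.716% in mesenchyme-like cells. Tead1 remained the largest share there (49.6% to 59.9%), followed by Tead2 (27.8% to 40.4%). Cells with a UMI of Tead4 were 11.4% to 23.7% of endothelium-like and 0.100% to 1.85% of mesenchyme-like cells.

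**Figure D2:**
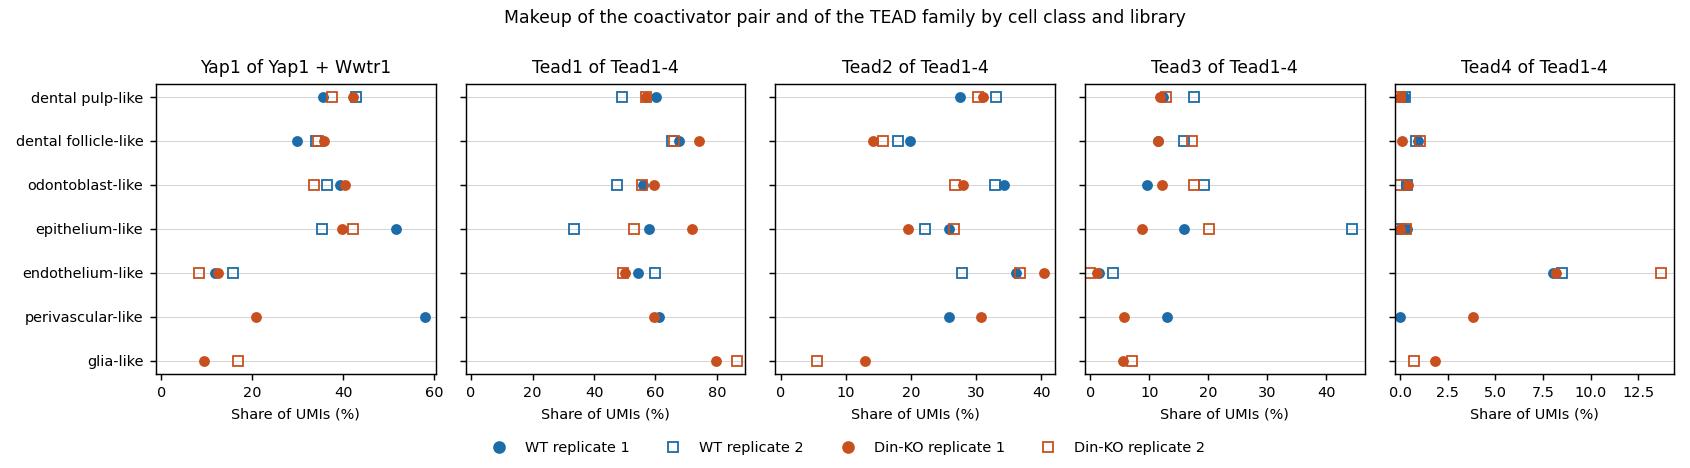
Share of UMIs (%) that Yap1 contributed to the coactivator pair and that each TEAD gene contributed to the family, by non-immune cell class, with 1 mark per library. In endothelium-like cells Yap1 falls to 8.32% to 15.7%, Tead3 to 0% to 3.77%, and Tead4 reaches 8.04% to 13.7%.

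Most of the endothelial Ccn2 came from 1 small cluster. Ccn2 stood at 275 and 1010 CPM in WT libraries, with 312 and 743 CPM in the Din-KO libraries, so that replicate 2 libraries were higher in both genotypes. The highest value was that of the library with the most mesenchyme and perivascular markers in this class. The cluster was led by Apoa1, Vwf and Slco1a4, with Selp among its 10 leading genes, Vwf and Selp being genes of the storage granules of endothelial cells. It held 12.8% to 24.6% of the endothelium-like cells of a library and 73.5% to 89.5% of their Ccn2 UMIs. Its Ccn2 level was 1719 and 4361 CPM in WT and 1740 and 2602 CPM in Din-KO. The cluster led by Aplnr, Gpihbp1 and Plvap had 89.1 to 358 CPM and that led by Gja4, Stmn2 and Cldn5, Gja4 and Sox17 (also among its leading genes) being arterial genes, had 18.4 to 53.8 CPM. The ranges of the 3 clusters did not overlap. Members were left out of the clustering, so Ccn2 did not form the cluster. Without it, a comparison chosen after seeing the data, Ccn2 was higher in endothelium-like cells by 0.92 (edgeR adjusted p = 0.0248) and not 3.06. Wwtr1 overlapped between the 3 clusters, at 239 to 386 CPM in the Apoa1, 219 to 365 in the Aplnr and 199 to 474 in the Gja4 cluster, and its log2 fold change without the cluster was 1.67.

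Epithelium-like cells had the coactivators and TEAD genes at levels that did not pass a test against mesenchyme-like cells, and all 4 output genes lower. Of all genes tested 24.6% were lower and 16.5% higher. The log2 fold change was -2.96 ± 0.36 for Ccn1 (edgeR adjusted p = 3.381e-07), -3.13 ± 0.42 for Ccn2 (1.203e-06), -1.44 ± 0.24 for Amotl2 (2.431e-05) and -1.72 ± 0.22 for Lats2 (7.934e-07). Yap1 differed by 0.21 (95% interval -0.22 to 0.65) and Wwtr1 by -0.11 (-0.50 to 0.27). The 4 output genes were also lower in the replicate 1 and replicate 2 libraries alone. Ccn2 was at 3.21 and 0.855 CPM in WT libraries, with 8.10 and 8.96 CPM in the Din-KO libraries, under the 34.7 to 95.8 CPM of mesenchyme-like cells in every library. The stress list was also lower in this class (484 and 673 CPM in WT, 398 and 1489 CPM in Din-KO), with 11 of its 16 genes called lower. Among cells at or below the median share of stress UMIs Ccn1 (-2.30), Ccn2 (-2.47), Amotl2 (-1.01) and Lats2 (-1.79) still passed.

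The epithelium was not uniform. One cluster had Shh and Epcam among its leading genes, which are expressed in dental epithelium before enamel secretion, and the other was led by Enam, Amelx and Amtn, which encode enamel proteins made by ameloblasts. Tead1 averaged 95.8 ± 54.6 CPM in the Shh cluster and 6.80 ± 2.28 in the Enam cluster, and Tead2 36.0 ± 7.9 and 4.70 ± 1.77 (SD, n = 4 libraries). Yap1 averaged 57.7 ± 9.6 and 31.2 ± 5.1 CPM. These 3 genes and Tead3, Ccn1, Ccn2, Amotl2 and Lats2 were higher in the Shh cluster in 4 of 4 libraries. Wwtr1, at 51.8 ± 19.1 and 71.4 ± 16.8 CPM, was higher there in 1 of 4. The clusters are described by their levels, with no test, and the share of all genes higher in either cluster was not computed. CPM are shares of all UMIs. The summed epithelium markers, enamel genes among them, took 34550 and 351301 CPM of this class in WT and 137982 and 215702 CPM in Din-KO. Their part in the cluster levels was not tested. The Shh cluster made up 84.1% and 27.0% of epithelium-like cells in WT and 67.8% and 40.7% in Din-KO. Tead1 in the class was 59.9, 12.5, 96.3 and 36.5 CPM in the same order, with both replicate 2 libraries below both replicate 1 libraries. Within the Shh cluster Tead1 was 77.3 and 50.6 CPM in WT and 175 and 80.3 CPM in Din-KO. The part of the cluster shares in the level of the class was not tested.

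Glia-like and perivascular-like cells had 20 cells in 2 libraries each, so these values rest on fewer cells. Tead1 reached 239 and 353 CPM in glia-like cells of Din-KO, above every sum of another class. In edgeR, Tead1 (1.73 ± 0.37, adjusted p = 0.000986) and Wwtr1 (0.96 ± 0.26, adjusted p = 0.007817) were higher in glia-like than in mesenchyme-like cells, where 11.1% of all genes were higher and 12.4% lower. In perivascular-like cells Ccn2 (417 and 237 CPM in WT and Din-KO replicate 1) was the member that passed (2.74 ± 0.48, edgeR adjusted p = 0.0002402), where 5.68% of genes were higher and 7.13% lower. Amotl2 was at 69.6 and 73.1 CPM there (0.90, 95% interval 0.05 to 1.75) and did not pass. Endothelium-like cells of the same libraries had 275 and 312 CPM of Ccn2, so neither class was higher in both.

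In immune classes most members were low. In macrophage-like cells 9 members were lower, all but Tead4 (38.0% of all genes lower, 23.6% higher). In B-like cells the same 9 were lower (36.9% lower, 23.3% higher), but the call of Lats2 was lost in 5 of 17 alternatives, in which it lay between -0.66 and -0.37, among them without WT replicate 2 or Din-KO replicate 2. In neutrophil-like cells 8 were (31.1% lower, 19.7% higher) and in monocyte or dendritic-like cells 7 (22.0% lower, 14.9% higher). Ccn1 had 0 UMIs in 35 and 39 monocyte or dendritic-like cells of the replicate 1 libraries, which allows a share of up to 8.57% and 7.69% of cells with a UMI. Tead3 had 0 UMIs in the 3 neutrophil-like sums, of 32, 72 and 32 cells, which allows up to 9.38%, 4.17% and 9.38%. Lats2, the kinase that phosphorylates YAP, was the exception, with 11.2 to 42.3 CPM over the 13 immune sums. In neutrophil-like cells it stood at 20.2, 33.7 and 42.3 CPM and differed from mesenchyme-like cells by a log2 fold change of 0.12 (95% interval -0.54 to 0.77), and in monocyte or dendritic-like cells by -0.87 (-1.79 to 0.05). Ccn1 in macrophage-like cells was 17.6 and 34.2 CPM in WT and 9.46 and 34.8 CPM in Din-KO. Among macrophage-like cells at or below the median stress share, neither Ccn1 nor Lats2 passed, and neither did in the replicate 1 libraries alone.

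Within the mesenchyme, the dental follicle-like cells had the highest output genes. The mesenchymal subtypes were compared in 1 fit with the library as a term. Dental follicle-like cells (markers such as Aldh1a2, Bmp3 and Tnn) differed from dental pulp-like cells (Cldn10, Syt6, Smoc2) in 7 of 9 members tested, all higher, where 20.8% of 12919 genes were higher and 19.8% lower. Ccn2 was at 98.4 and 156 CPM in follicle-like cells of the WT libraries, 115 and 116 CPM in those of Din-KO, and at 23.2, 42.001, 15.8 and 38.8 CPM in pulp-like cells of the same libraries. The ranges did not overlap (log2 fold change 2.16 ± 0.19, edgeR adjusted p = 8.929e-06). Amotl2 was at 63.1, 79.2, 68.2 and 92.9 CPM in follicle-like and at 21.9, 45.6, 20.7 and 38.8 CPM in pulp-like cells (1.37 ± 0.17, edgeR adjusted p = 0.0001201). Lats2 (0.63), Tead1 (0.84), Tead3 (0.56) and Wwtr1 (0.50) were also higher. The calls of Tead3 and Wwtr1 were lost with cells thinned to 2000 UMIs and without a library term. That of Tead3 was also lost in the replicate 2 libraries alone. Yap1 differed by 0.13 (95% interval -0.05 to 0.31) and Tead2 by -0.31 (-0.67 to 0.06), and Tead4, with 0.21 to 1.88 CPM in follicle-like and 0 to 0.36 CPM in pulp-like cells, was too low to be tested. The summed dental follicle markers were at 4507 to 6188 CPM in follicle-like and 320 to 543 CPM in pulp-like cells. The summed dental pulp markers went against the name, with 4624 to 5496 CPM in follicle-like and 2115 to 2676 CPM in pulp-like cells. The pulp-like clusters led by Grik1 and Vcan (855 cells), Cnmd and Gpha2 (640) and Stbd1 and Ifitm1 (421) had no pulp marker among their 10 leading genes. Dental pulp-like was the default name among mesenchyme clusters. Perivascular markers (442 to 1131 against 122 to 163 CPM) and osteoblast markers (1038 to 2484 against 297 to 496 CPM) were also higher in the follicle-like sums, and the part of these markers in the result was not tested.

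Ccn1 also rose in follicle-like cells, by 1.86 ± 0.41 (edgeR adjusted p = 0.004272), but its level also differed between the replicate numbers. In follicle-like cells it was 56.0 and 81.0 CPM in WT and Din-KO replicate 1 and 200.5 and 288 CPM in WT and Din-KO replicate 2. In pulp-like cells it was 18.2 and 13.4 CPM in replicate 1 and 88.0 and 78.7 CPM in replicate 2, so that pulp-like cells of replicate 2 overlapped with follicle-like cells of replicate 1. Within every library the follicle-like cells were higher. The log2 fold change was 2.10 in the replicate 1 libraries alone and 1.60 in the replicate 2 libraries alone, and each passed. For Ccn2 the same values were 2.45 and 1.82.

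**Figure D3:**
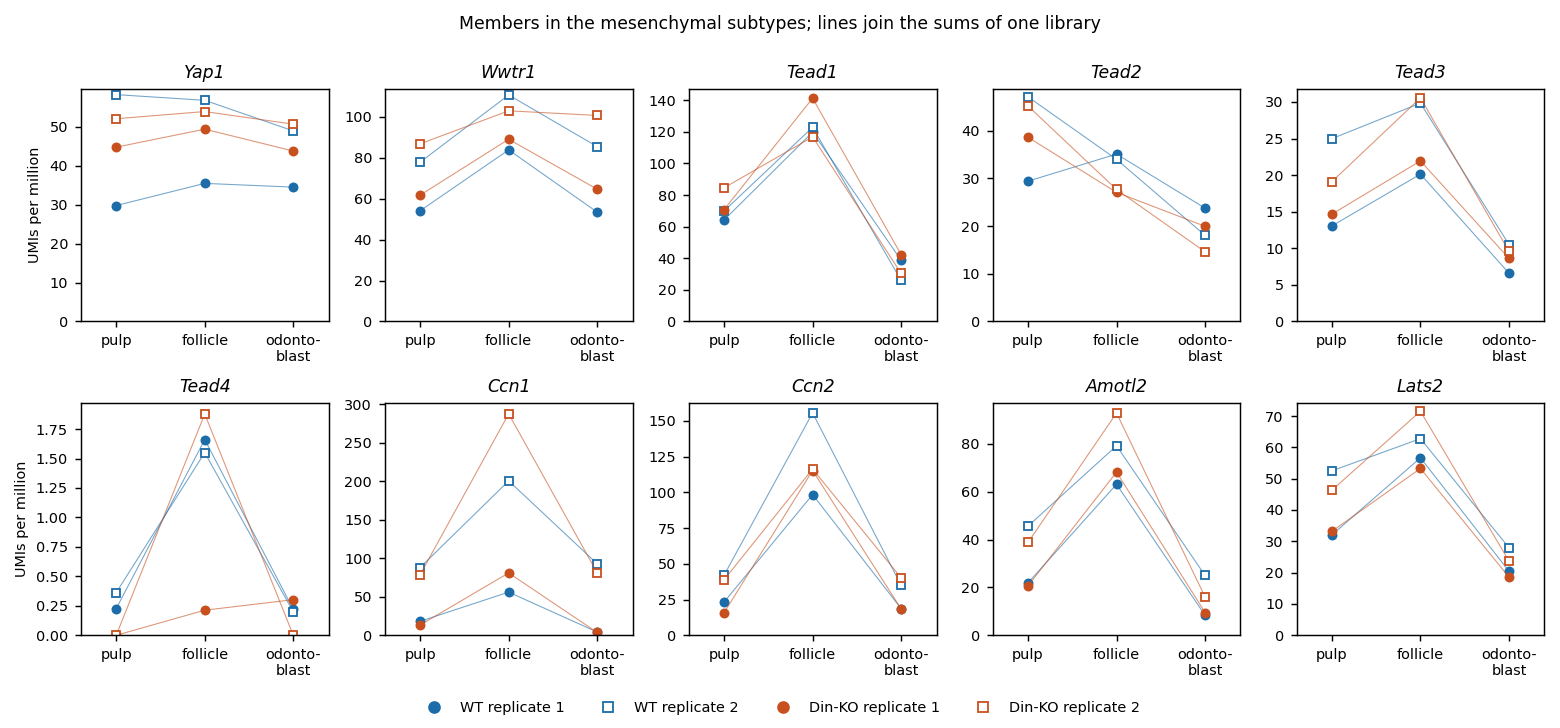
CPM of each gene in the pulp-like, follicle-like and odontoblast-like cells, with lines that join the 3 sums of 1 library (blue WT, orange Din-KO, filled replicate 1, open replicate 2). Ccn1, Ccn2, Amotl2, Lats2, Wwtr1, Tead1 and Tead3 peak in follicle-like cells in all 4 libraries, while Yap1 stays between 29.8 and 58.3 CPM.

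Odontoblast-like cells, named after the cells that lay down dentin, had less Tead1, Tead2 and Tead3 than dental pulp-like cells. Most were in the cluster led by Tac1, Smpd3 and Fgf3 (210 and 92 cells in WT, 355 and 89 in Din-KO). Of these leading genes Smpd3 is on the odontoblast and Fgf3 on the dental pulp marker list. The mean z score over the mesenchyme clusters was 0.41 for odontoblast and 0.318 for osteoblast markers there. The cluster led by Bglap, Bglap2 and Dspp held 35 and 85 cells in WT and 45 and 62 in Din-KO, and its scores were 2.345 and 1.629. Osteoblast markers were at 1142 to 10413 CPM in odontoblast-like and 297 to 496 CPM in pulp-like cells. The part of these differences in the result was not tested. Against dental pulp-like cells 5 members were lower, where 25.5% of all genes were, and 1 was higher, where 25.3% were. The 5 were Tead1 (-0.84 ± 0.12, edgeR adjusted p = 0.0002285), Tead2 (-0.80 ± 0.17, adjusted p = 0.002766), Tead3 (-0.77 ± 0.11, adjusted p = 0.0002736), Amotl2 (-0.87 ± 0.19, adjusted p = 0.00378) and Lats2 (-0.60 ± 0.10, adjusted p = 0.00059). Tead2 did not pass in the replicate 1 libraries alone (-0.50, edgeR adjusted p = 0.0503), Amotl2 without cell cycle regression (-0.17, edgeR adjusted p = 0.4398) or without a library term (-0.81, 0.07963), and Lats2 and Tead3 with cells thinned to 2000 UMIs. Tead1 was at 38.7 and 26.0 CPM in WT libraries, with 42.3 and 30.4 CPM in the Din-KO libraries, under the 64.2 to 84.5 CPM of pulp-like cells. Wwtr1 was higher by 0.33 (edgeR adjusted p = 0.02752), but the call was lost in 7 of 18 alternatives, and with cells thinned to 2000 UMIs the value was -0.11. Yap1 differed by 0.20 (95% interval 0.02 to 0.38) and did not pass. Against dental follicle-like cells 7 members were lower (24.7% of all genes lower, 27.5% higher), from -0.50 for Tead2 to -2.23 for Amotl2. The call of Tead2 was lost in 6 of 18 alternatives, among them each library left out but WT replicate 1, and its log2 fold change ranged from -0.71 to -0.36. Ccn1 in odontoblast-like cells was at 4.18 and 3.63 CPM in WT and Din-KO replicate 1 and at 92.8 and 81.1 CPM in WT and Din-KO replicate 2. Against pulp-like cells it was therefore lower in the replicate 1 libraries alone (-1.89, edgeR adjusted p = 0.0007835) and not in the replicate 2 libraries alone (0.33, adjusted p = 0.1887).

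Levels also differed between the clusters of a subtype, described here with no test. The odontoblast-like cluster led by Bglap, Bglap2 and Dspp, the last of which encodes the main dentin phosphoprotein, had Tead1 at 6.70 ± 1.62 CPM, against 47.3 ± 2.4 CPM in the odontoblast-like cluster led by Tac1, Smpd3 and Fgf3. Wwtr1 was at 94.3 ± 32.3 and 66.1 ± 14.2 CPM in the same clusters and Yap1 at 39.6 ± 9.1 and 47.9 ± 10.7 CPM. Tead1 thus stood below 10 CPM on average in both the Dspp cluster and the Enam cluster. Among dental pulp-like clusters the Smoc2 cluster had the highest Tead1 (107 ± 10.7 CPM). Among follicle-like clusters Ccn2 was 60.9 ± 23.6 CPM in the one led by Sfrp2, 179 ± 35.9 in the one led by Bmp3 and 134 ± 110 in the one led by Spp1 and Mmp13.

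Ccn1 differed between the replicate numbers of the libraries in both genotypes. In odontoblast-like cells replicate 2 was 22.2-fold (WT) and 22.4-fold (Din-KO) higher than replicate 1. The ratio was 4.85 and 5.89 in pulp-like, 3.58 and 3.55 in follicle-like, 4.59 and 3.21 in endothelium-like and 1.95 and 3.68 in macrophage-like cells. In B-like cells Ccn1 ranged from 0 to 1.96 CPM in all 4 libraries. Other members also differed by replicate number. In mesenchyme-like cells the ratio was 6.58 and 8.29 for Ccn1, 2.56 and 2.27 for Ccn2 and 2.08 and 2.22 for Amotl2. It was 1.64 and 1.5 for Wwtr1, 1.70 and 1.48 for Tead3, 1.46 and 1.54 for Lats2 and 1.71 and 1.18 for Yap1. For Tead2 it was 1.04 and 0.80. These cells joined subtypes in the unequal shares given above. The 16 stress and immediate early genes moved the same way as Ccn1, by 2.73 and 2.81 in pulp-like, 4.28 and 6.99 in odontoblast-like, 1.86 and 1.64 in follicle-like and 3.70 and 2.37 in endothelium-like cells. Within a library, mesenchyme-like cells above the median share of stress UMIs had more Ccn1 than the others, 43.5 against 13.2 CPM in WT replicate 1, 45.3 against 9.99 in Din-KO replicate 1, 199 against 41.1 in WT replicate 2 and 218 against 92.8 in Din-KO replicate 2. They also had more Ccn2, 52.1 against 31.3, 49.9 against 26.7, 115 against 59.1 and 91.6 against 44.7 CPM in the same order. Amotl2, Lats2, Wwtr1, Tead1 and Tead3 were higher in them in every library too. The share of all genes higher in these cells was not computed. Among cells at or below that median, Ccn1 remained higher in follicle-like than in pulp-like cells (2.64) and so did Ccn2 (2.29). The part of tissue digestion in the Ccn1 level was not tested, and replicate number cannot be told apart from what else differed between these library pairs.

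**Figure D4:**
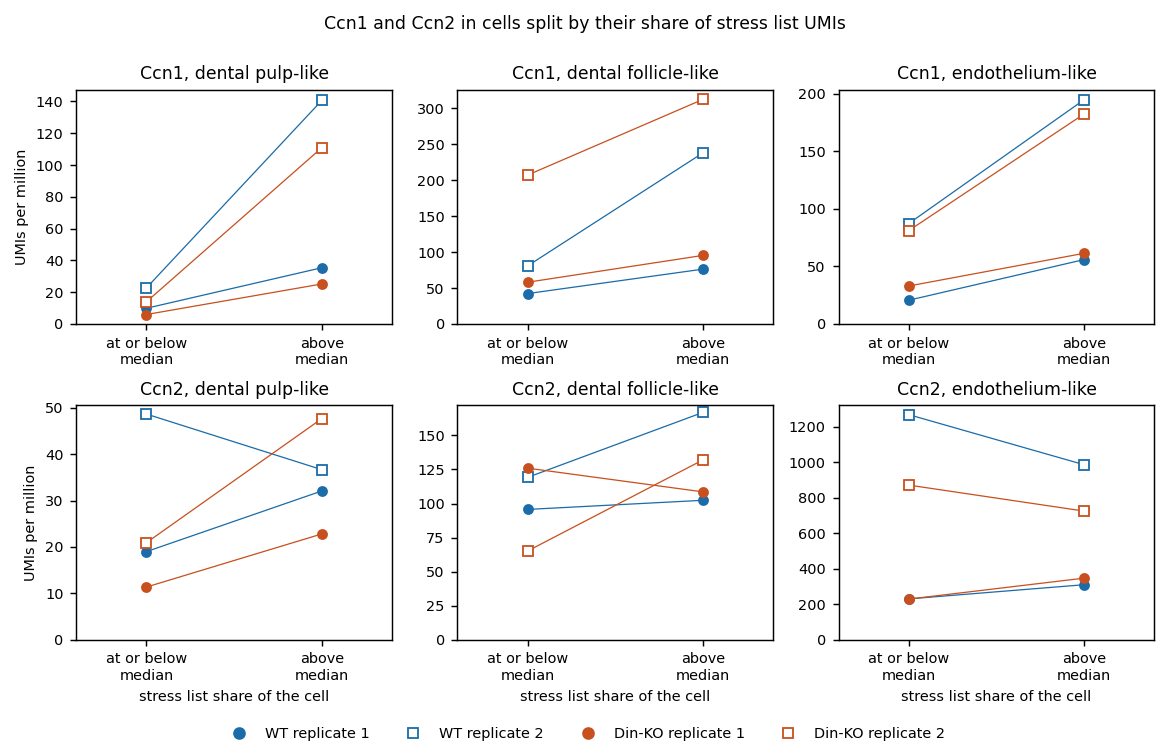
Ccn1 (upper row) and Ccn2 (lower row) in CPM in dental pulp-like, dental follicle-like and endothelium-like cells, split at the median share of stress list UMIs over all cells, with lines that join both sets of cells of 1 library. Ccn1 is higher in the cells above the median in all 4 libraries of each class, while Ccn2 goes up in some libraries and down in others.

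Other genes of the pathway were read from lists taken with the members. Of 21 Hippo kinases and upstream regulators, 9 were higher and 5 lower in endothelium-like than in mesenchyme-like cells. The median log2 fold change was 0.30, against -0.09 over all genes tested, of which 23.6% were higher and 27.6% lower. Of the list, Ptpn14 (1.87) and Taok2 (1.56) were among the higher and Wwc1 (-3.12) and Frmd6 (-1.42) among the lower. In epithelium-like cells 6 were higher, such as Wwc1 (2.59) and Ajuba (2.08), and 7 lower, such as the protocadherins Fat4 (-3.03) and Dchs1 (-2.36), with a median of 0.14 against -0.10 over all genes, of which 16.5% were higher and 24.6% lower. In follicle-like against pulp-like cells 10 were higher, such as Wwc1 (2.26) and Ptpn14 (0.78), and 3 lower, Stk3 (-0.83), Mob1b (-0.36) and Taok2 (-0.34), with a median of 0.28 against -0.01 over all genes, of which 20.8% were higher and 19.8% lower.

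Of 17 other YAP and TAZ target genes, 15 were tested between follicle-like and pulp-like cells, with 8 higher and 4 lower. Their median was 0.79, against -0.01 over all genes, of which 20.8% were higher and 19.8% lower. Nt5e, which encodes the ectonucleotidase CD73, was higher by 3.89 and Foxf2 by 2.31, while Fjx1 was lower by a log2 fold change of -2.86 and Tgfb2 by -1.76. In endothelium-like cells 2 of 16 were higher (Nuak2 3.70 and Crim1 3.03) and 9 lower. Their median was -0.80, against -0.09 over all genes, of which 23.6% were higher and 27.6% lower. In epithelium-like cells 3 were higher and 8 lower. There the median was -0.72, against -0.10 over all genes, of which 16.5% were higher and 24.6% lower. The target genes of the list thus did not move together. Of the vestigial-like cofactors, which bind TEAD proteins in place of YAP, Vgll3 and Vgll4 were high enough to be tested. Vgll3 was higher in follicle-like than in pulp-like cells (4.61 ± 0.60, edgeR adjusted p = 0.0001442) and in glia-like (4.19) and perivascular-like (4.71) than in mesenchyme-like cells. Vgll4 was lower in follicle-like (-0.56) and higher in odontoblast-like (0.56) than in pulp-like cells.

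Over the 37 sums of a class and a library, the genes whose log2 level correlated most with a member were named out of 11625 genes. Other members were left aside, such as Amotl2 and Ccn2 with an r of 0.913 between them. The sums share libraries, depth and class markers, so the correlation is a description. For Wwtr1 the genes named were Hspg2 (Pearson's r = 0.956), Ephb4 (0.953) and Stox2 (0.94). For Ccn2 they were Eml1 (0.96), Tmem204 (0.931) and Chst2 (0.928), for Amotl2 the basement membrane genes Lamb1 (0.963) and Nid1 (0.931) and Fam171a2 (0.912), and for Tead4 Reep1 (0.916), Arhgef15 (0.897) and Adgrf5 (0.886). For Yap1 they were Calu (0.921), P3h4 (0.901) and Impad1 (0.901), and for Ccn1 Rusc2 (0.934), Samd4 (0.912) and Slc39a1 (0.882).

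Din-KO and WT were compared within 7 classes in which every library had 20 cells, with 2 libraries against 2. B-like cells, with 97 to 203 cells a library, were not compared. No member passed edgeR's quasi-likelihood test in any of the 62 pairs of a member and a class, and 1 pair had an unadjusted p under 0.05. The share of all genes called was 0% in mesenchyme-like, 0.0148% in dental pulp-like, 0% in dental follicle-like, odontoblast-like and epithelium-like, 0.0449% in endothelium-like and 0.0728% in macrophage-like cells. DESeq2 called 0 members as well. Without Din-KO replicate 2, Ccn1 in dental pulp-like cells was lower in Din-KO (-1.83, edgeR adjusted p = 0.0238). That sets 13.4 CPM in Din-KO replicate 1 against 18.2 and 88.0 CPM in WT replicates, where replicate 2 of Din-KO had 78.7 CPM. The coactivators had log2 fold changes between -0.16 and 0.44, with 95% intervals that reached from -1.09 to 1.70 over their 14 pairs. The TEAD genes ranged from -0.54 to 0.86 and the output genes from -0.45 to 2.28, with wider intervals. In dental pulp-like cells Yap1 was at 29.8 and 58.3 CPM in WT libraries, with 44.8 and 52.1 CPM in the Din-KO libraries, and Wwtr1 at 54.1, 77.8, 61.7 and 86.8 CPM in the same order. The genotypes overlapped in both.

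The pair with an unadjusted p under 0.05 was Ccn2 in epithelium-like cells (log2 fold change 2.03, 95% interval 0.40 to 3.66, edgeR adjusted p = 0.9999), from the 4 values given above. In Din-KO replicate 1 the Shh cluster held 94.1% of the Ccn2 UMIs of the class (32 UMIs), from 2.5% of its 120 cells. The share of Shh cluster cells with a UMI of Ccn2 was 14.5% in Din-KO replicate 2, 3.28% in WT replicate 1 and 6.06% in WT replicate 2. Ccn1 in the same class was at 1.07 and 3.71 CPM in WT libraries, with 6.43 and 21.3 CPM in the Din-KO libraries (2.28, 95% interval -0.23 to 4.78). Lats2 was at 3.92 and 7.98 CPM in WT libraries, with 11.2 and 19.0 CPM in the Din-KO libraries, and Amotl2 at 13.55, 4.56, 13.58 and 18.1 CPM in the same order. Of the 9 members with at least 10 UMIs in these 4 sums, 6 were higher in both Din-KO libraries than in both WT libraries, where 19.0% of all such genes were, and 1 was lower (Tead3), where 3.57% were. This count was made after the values of this class were seen. Some margins were small, with Wwtr1 at 66.708 CPM in WT replicate 2 and 66.716 CPM in Din-KO replicate 2. CPM are shares of all UMIs, and the epithelium markers took unequal shares of them, as given above. The Din-KO replicate 2 sum also held 1040 CPM of mesenchyme markers, against 461 to 648 CPM in the others. Its stress list level was 1489 CPM, against 398 to 673 CPM. The part of these differences in the count was not tested. The epithelium-like cells of each library were made up of the Shh and Enam clusters in the unequal shares given above, whose part in these values was not tested. Whether the genotype difference itself differed was tested between follicle-like and pulp-like and between endothelium-like and mesenchyme-like cells, and 0 of 19 pairs passed (0% of all genes in both, 1 pair with an unadjusted p under 0.05). That pair was Ccn1 in follicle-like minus pulp-like cells (0.77 ± 0.26, edgeR adjusted p = 1). Cells with Y-linked UMIs were in the Din-KO libraries alone, so sex and genotype cannot be told apart in these sums. Among cells with Xist and no Y-linked UMIs, 0 members passed either.

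**Figure D5:**
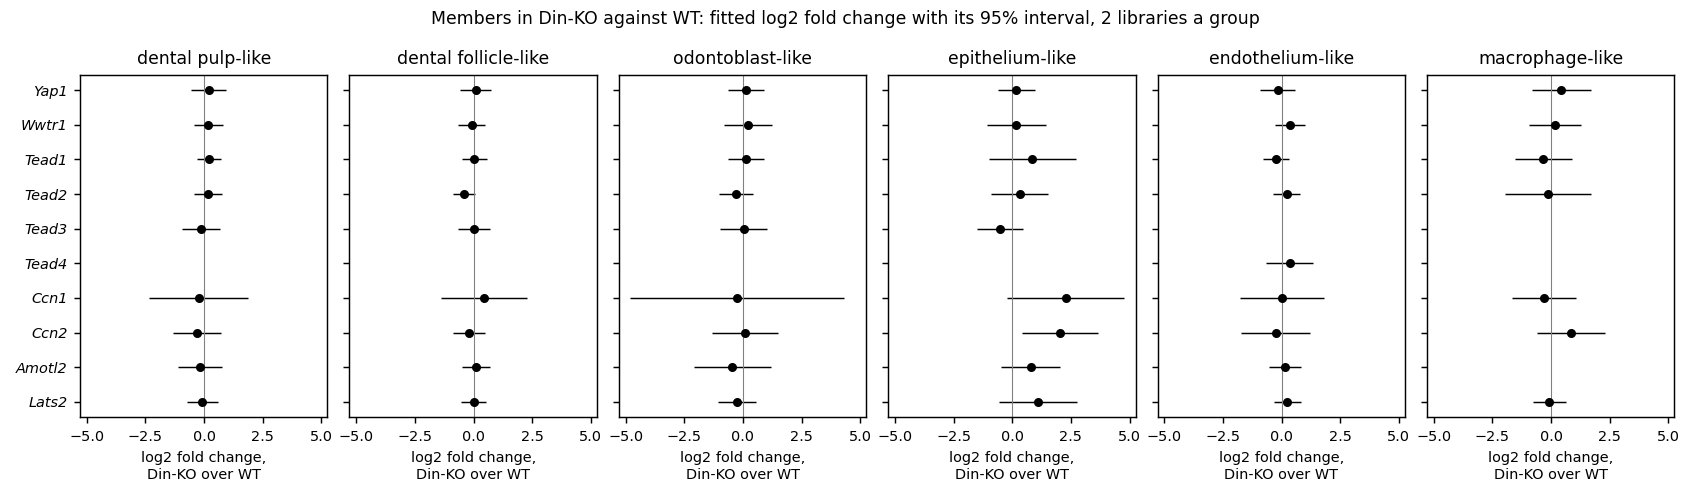
Log2 fold change of each gene in Din-KO against WT with its 95% interval derived from the edgeR F statistic, in 6 classes with 2 libraries a genotype. Every interval but that of Ccn2 in epithelium-like cells includes 0, and the interval of Ccn1 is the widest in pulp-like, follicle-like and odontoblast-like cells.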

How the data were processed

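The authors sequenced 4 libraries with the 10x 3' v3.1 kit, aligned reads to mm10/GRCm38 and deposited UMI counts per gene and barcode from Cell Ranger 6.0.2, not normalized. Deposited file names number the libraries differently from the sample titles, and the titles were used. Following the study's methods, barcodes under 1000 genes, above 10% mitochondrial or above 3% hemoglobin UMIs were removed. Clustering after cell cycle regression and integration used Seurat 5.3.0 (2000 variable genes, 30 components, resolution 1) without the members and pathway lists. Among other conditions, a class name needed 3 detected markers, a mean marker z score above 0.5 and a lead of 0.2 over the next class. Dental pulp-like was the default for mesenchyme clusters that did not meet the conditions of another subtype. It was given where 3 pulp markers were detected and scored above the follicle markers. The naming rule was set with the data in hand, and the members and lists were chosen with earlier results of these data known. Scrublet (scanpy 1.11.5) marked 0.946% of cells, and these were kept. UMI sums per library and class (CPM for display) were tested with edgeR 4.0.16 (TMM, its low-count filter, quasi-likelihood test, Benjamini-Hochberg adjustment at 0.05). DESeq2 1.42.0 was an alternative, as were other scalings, filters, clusterings, thinned cells and each library left out. The fits of the replicate 1 or replicate 2 libraries alone were added after the data were seen. Named beside the members were genes of the lists by size of change and the 3 genes most like a member. The tests recovered changed genes in simulated counts, made with large changes, the same spread for every gene and no difference between replicate numbers. That check does not measure their power in the genotype comparisons. Shares have exact Clopper-Pearson intervals in the tables. A count of 0 was read as allowing 3 counts. Both cover counting error only. Free RNA was not removed. No label says that libraries are separate animals, so p-values measure the spread between libraries. Where the library is a term, that is the spread of the difference between classes from library to library. One leading gene of an epithelium-like cluster is not reported here.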

Additional observations from a re-analysis of the deposited data

How the results depend on the processing

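Of the values of single members under the alternatives, 2713 stayed the same. Such values kept a call with its direction or, without a call, moved by less than their SE, whatever their sign. Further, 169 without a call moved more than that, 39 lost a call, 36 gained one and 1 reversed. Of the numbers of members called 315 stayed within 1.5 times. Glia-like against mesenchyme-like cells had 4 members called without WT replicate 2 and not 2, and perivascular-like cells had 2 and not 1 without WT replicate 2 and in the replicate 1 libraries alone. Without a library term 4 members and not 7 were called between follicle-like and pulp-like cells. With cells thinned to 2000 UMIs 3 and not 6 were called between odontoblast-like and pulp-like cells, and Wwtr1 reversed to -0.11 there. Over the libraries left out, members called ranged from 2 to 4 in glia-like, 1 to 2 in perivascular-like, 6 to 7 in endothelium-like, 4 to 5 in epithelium-like, 9 to 10 in macrophage-like, 8 to 9 in B-like and 7 to 8 in neutrophil-like cells, 7 to 8 between follicle-like and pulp-like cells, and 0 to 1 between genotypes in dental pulp-like cells. A lone library of a genotype was then assumed to vary like the others. The causes were not tested. Over all genes, thinning left 899 to 4817 genes called per class comparison and 1932 to 2513 per subtype comparison (0.367 to 0.383 times the number without thinning). DESeq2 called 5 to 51 genes per genotype comparison.

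WT and Din-KO libraries share replicate numbers, but no label says that a number marks a litter or batch. Deviations of same-numbered libraries from their group means correlated over genes (r = 0.439 to 0.786 over the 7 classes). With the replicate block, 0 members were called in each of the 7 genotype comparisons, and 83 genes in mesenchyme-like, 469 in dental pulp-like, 81 in dental follicle-like, 90 in odontoblast-like, 0 in epithelium-like, 83 in endothelium-like and 261 in macrophage-like cells.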
